A study of Homo sapiens with 60 samples.

Results

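Sayeok-tang at 100 µg/mL was set against Sayeok-tang at 20 µg/mL in A549, a human line established from a lung carcinoma, to see which transcript responses begin below the high dose of 500 µg/mL. The comparison held 6 of the 60 libraries of the series, 3 at 100 µg/mL and 3 at 20 µg/mL, chosen by their treatment labels. Sayeok-tang was given as a water extract for 24 h. The groups set beside it were Sayeok-tang at 500 µg/mL (3 libraries), the formula Bojungikgi-tang as a water extract at 100 and 20 µg/mL (2 libraries each), dried ginger (Zingiberis Rhizoma) as a 70% ethanol extract at 100 and 20 µg/mL (3 libraries each), and DMSO vehicle (3 libraries), all for 24 h. The sample labels put DMSO at 0.1% in the vehicle and the series text puts it at 2%, and this conflict is unresolved. All groups are cultures of 1 cell line, and nothing in the labels tells whether the replicates were cultured separately. The p-values therefore measure only the spread between these libraries, which may be technical.

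Sayeok-tang is a formula of processed aconite root, dried ginger and licorice in East Asian medicine; this is general background, since the labels do not list its ingredients. The genes described first are targets of the aryl hydrocarbon receptor and the fibrinogen genes. The aryl hydrocarbon receptor (AhR) is a ligand-activated transcription factor that enters the nucleus, pairs with ARNT and binds xenobiotic response elements, whose core reads GCGTG. It switches on the cytochrome P450 genes CYP1A1 and CYP1B1, which oxidise planar aromatic compounds, and TIPARP and AHRR, which feed back on the receptor. Fibrinogen, the precursor of the fibrin clot, is assembled from the products of the neighbouring genes FGA, FGB and FGG. It is made mainly in hepatocytes, under HNF1 and interleukin-6 control, and also by some lung epithelial cells.

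The upstream sequences of these genes are shown because the genes of each group moved together between the doses. They are RefSeq windows on GRCh38.p14 from 250 bases before to 50 bases after the transcript start, printed 5′ to 3′ on the strand of the gene. A window was found for 5 of 6 genes looked up, and CYP1B1 is named only. CYP1A1 lies at chr15:74725479-74725778 (minus strand). For TIPARP the first of 3 listed windows is shown, at chr3:156674340-156674639 (plus strand). Capitals mark the xenobiotic response core GCGTG or its reverse complement CACGC.
CYP1A1: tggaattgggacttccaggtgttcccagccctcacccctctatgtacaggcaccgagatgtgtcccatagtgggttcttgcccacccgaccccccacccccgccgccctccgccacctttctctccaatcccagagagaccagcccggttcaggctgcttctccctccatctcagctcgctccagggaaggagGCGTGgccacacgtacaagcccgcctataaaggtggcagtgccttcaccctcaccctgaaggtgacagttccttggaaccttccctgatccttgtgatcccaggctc
TIPARP: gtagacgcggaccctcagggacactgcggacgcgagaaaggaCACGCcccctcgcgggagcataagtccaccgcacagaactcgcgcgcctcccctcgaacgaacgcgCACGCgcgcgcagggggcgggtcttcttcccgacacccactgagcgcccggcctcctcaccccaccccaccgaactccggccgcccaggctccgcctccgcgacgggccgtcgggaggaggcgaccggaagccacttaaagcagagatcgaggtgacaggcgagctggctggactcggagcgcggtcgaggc

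The CYP1A1 window holds 1 match to this core and the TIPARP window holds 2. Of all 35116 windows of this length, 36.5% hold at least 1 match on either strand, so a match by itself is common.

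The fibrinogen windows lie at chr4:154590693-154590992 for FGA (minus strand), chr4:154562730-154563029 for FGB (plus strand, the first of 2 listed windows) and chr4:154612607-154612906 for FGG (minus strand). Capitals mark an HNF1 core (GTTAAT, or ATTAAC on the other strand) and an interleukin-6 response core (CTGGGAA, or TTCCCAG on the other strand). The motifs do not overlap in these windows.
FGA: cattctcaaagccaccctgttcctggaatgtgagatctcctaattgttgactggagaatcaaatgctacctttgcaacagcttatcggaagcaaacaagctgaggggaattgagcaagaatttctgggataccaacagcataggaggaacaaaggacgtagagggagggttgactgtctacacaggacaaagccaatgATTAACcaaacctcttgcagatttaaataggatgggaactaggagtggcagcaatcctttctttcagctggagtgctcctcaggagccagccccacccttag
FGB: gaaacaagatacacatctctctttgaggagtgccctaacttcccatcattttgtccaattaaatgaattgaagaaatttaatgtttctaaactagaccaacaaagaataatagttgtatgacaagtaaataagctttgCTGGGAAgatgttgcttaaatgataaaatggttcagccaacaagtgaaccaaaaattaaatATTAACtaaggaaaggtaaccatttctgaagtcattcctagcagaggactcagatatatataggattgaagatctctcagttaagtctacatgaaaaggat
FGG: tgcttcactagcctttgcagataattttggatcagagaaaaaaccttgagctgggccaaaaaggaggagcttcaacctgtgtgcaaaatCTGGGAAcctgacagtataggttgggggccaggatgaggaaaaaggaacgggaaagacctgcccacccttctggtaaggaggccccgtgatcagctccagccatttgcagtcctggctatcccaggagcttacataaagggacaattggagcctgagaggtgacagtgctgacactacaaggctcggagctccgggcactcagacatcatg

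FGA holds 1 HNF1 core and no interleukin-6 core, FGB holds 1 of each, and FGG holds 1 interleukin-6 core and no HNF1 core. Of all windows, 6.88% hold the HNF1 core and 10.8% the interleukin-6 core. These matches describe letters and were not tested as binding sites.

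The 3 libraries at 100 µg/mL totalled 23.6 to 29.6 M (mega) expected counts and the 3 at 20 µg/mL totalled 20.9 to 24.9 M. Mitochondrial genes took 10.7% ± 0.522 of counts at 100 µg/mL, 10.3% ± 1.04 at 20 µg/mL and 9.05% ± 0.417 in vehicle (SD, n = 3 each). The cell line label was checked against markers. KRT8 averaged 3040 CPM at 100 µg/mL and 3214 CPM at 20 µg/mL, where CPM is counts scaled to a library total of 1 M, and CDKN2A, which is known to be deleted in A549, was at 0 in all 6 libraries. The defining markers of alveolar type II cells were nearly absent, with SFTPC at 0.0254 CPM at 100 µg/mL and 0.0560 CPM at 20 µg/mL. The summed markers of endothelium stayed between 0.0675 and 0.339 CPM at 100 µg/mL and between 0.0851 and 0.201 CPM at 20 µg/mL. Other foreign markers were not as low. In the same order, neural and muscle markers summed to 47.3 to 50.3 and 51.6 to 53.7 CPM. Of these SNAP25 averaged 42.2 and 44.6 CPM. Blood cell markers summed to 9.51 to 11.6 and 8.09 to 9.49 CPM. Fibroblast markers summed to 6.58 to 7.51 and 6.76 to 8.13 CPM. Within a culture, fewer cells of a kind and less RNA per cell cannot be told apart.

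Between the doses, 40 of 16721 genes passed the test, 14 higher and 26 lower at 100 µg/mL, which is 0.239% of genes, 0.0837% higher and 0.155% lower. The test was edgeR's quasi-likelihood test with a Benjamini-Hochberg adjusted p under 0.05. The changes were small. Of the 40 genes, 37 differed by less than 1.5-fold. The log2 changes had a median size of 0.23. At an unadjusted p under 0.05 there were 1152 genes, and the median log2 change over all genes was -1.74e-05. In each of the 40 genes the 3 libraries at 100 µg/mL did not overlap the 3 at 20 µg/mL, as was so for 13.2% of all genes tested. Among the 10926 genes that averaged 5 CPM or more, the median standard error of a log2 change was 0.05, which sets the size that 3 libraries against 3 could resolve.

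**Figure D1:**
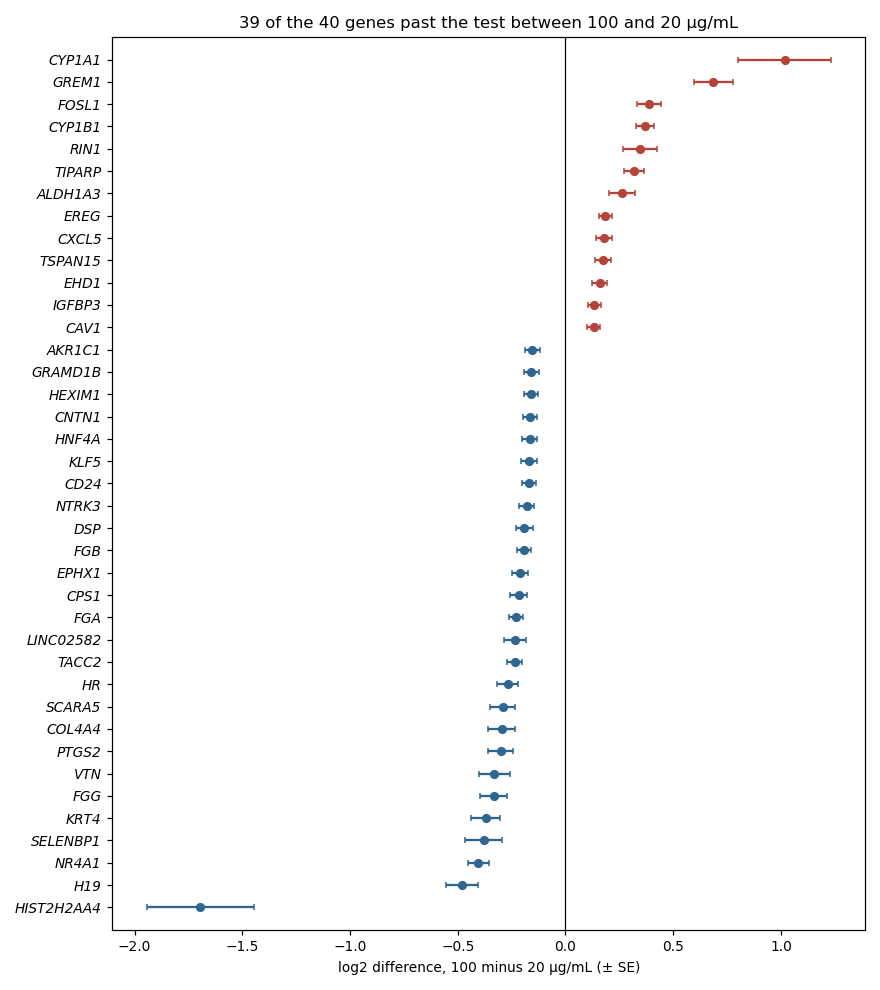
Log2 difference between 100 and 20 µg/mL of Sayeok-tang for 39 of the 40 genes past the test, sorted, with the standard error of the fit as bars (n = 3 libraries each). The genes higher at 100 µg/mL (red) run from CAV1 at 0.13 to CYP1A1 at 1.02, and those lower (blue) run from AKR1C1 at -0.15 to HIST2H2AA4 at -1.70.

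AhR target genes were higher at 100 µg/mL. Of 8 genes on the AhR list 7 were tested, 3 rose (CYP1B1, TIPARP and CYP1A1) and none fell, and the median log2 change of the list was 0.31. CYP1B1 (chr2:38066973-38109902, minus strand) had the lowest p of all genes. It stood at 88.6, 87.1 and 87.1 CPM at 100 µg/mL, against 64.3, 69.0 and 70.4 CPM at 20 µg/mL. Every library at 100 µg/mL was above every library at 20 µg/mL. The log2 change was 0.37 ± 0.04 (SE; edgeR adjusted p = 1.08e-06). TIPARP, an ADP-ribosyltransferase that restrains AhR, had 47.9, 49.0 and 49.2 CPM at 100 µg/mL, against 36.3, 41.6 and 39.6 CPM at 20 µg/mL. The groups were well apart, at a log2 change of 0.32 ± 0.05 (edgeR adjusted p = 1.59e-04). CYP1A1 was low throughout but differed by more, with 1.82, 1.94 and 1.61 CPM at 100 µg/mL, against 0.929, 0.995 and 0.731 CPM at 20 µg/mL. Its log2 change was 1.02 ± 0.21 (edgeR adjusted p = 0.0232), a 2.02-fold difference, and the call was lost when any 1 of the 6 libraries was left out (log2 0.90 to 1.10 over the alternatives, adjusted p up to 0.176). DESeq2 gave CYP1A1 no adjusted p and so did not call it. AHRR, the AhR repressor, had a log2 difference of 0.31 that did not pass (edgeR adjusted p = 0.669). The list's detoxifying enzymes NQO1 (-0.01) and ALDH3A1 (-0.04) had log2 differences near 0.

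Relative to vehicle, CYP1B1 was already higher at 20 µg/mL by 0.28 ± 0.04 and TIPARP by 0.16 ± 0.05 on the log2 scale (edgeR adjusted p = 4.51e-05 and 0.0278). CYP1A1 differed from vehicle by 1.04 ± 0.21 at 100 µg/mL (edgeR adjusted p = 9.33e-04) and by 0.02 ± 0.24 at 20 µg/mL (edgeR adjusted p = 0.979), an error too wide to set its level at 20 µg/mL apart from those of CYP1B1 and TIPARP. All of these comparisons share the vehicle libraries. At 500 µg/mL the genes were higher again than at 100 µg/mL, by 0.68 ± 0.04 for CYP1B1, 0.67 ± 0.04 for TIPARP and 0.75 ± 0.17 for CYP1A1 on the log2 scale. The doses are evenly spaced on a log scale, so the upper step could be tested against the lower. The upper step was larger by 0.31 ± 0.07 for CYP1B1 and by 0.36 ± 0.08 for TIPARP (edgeR adjusted p = 0.0372 and 0.0358), and differed by -0.26 ± 0.33 for CYP1A1 (edgeR adjusted p = 0.995). Over all genes 0.138% passed this test of the steps (0.102% higher, 0.0359% lower), which was added after the results were seen.

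**Figure D2:**
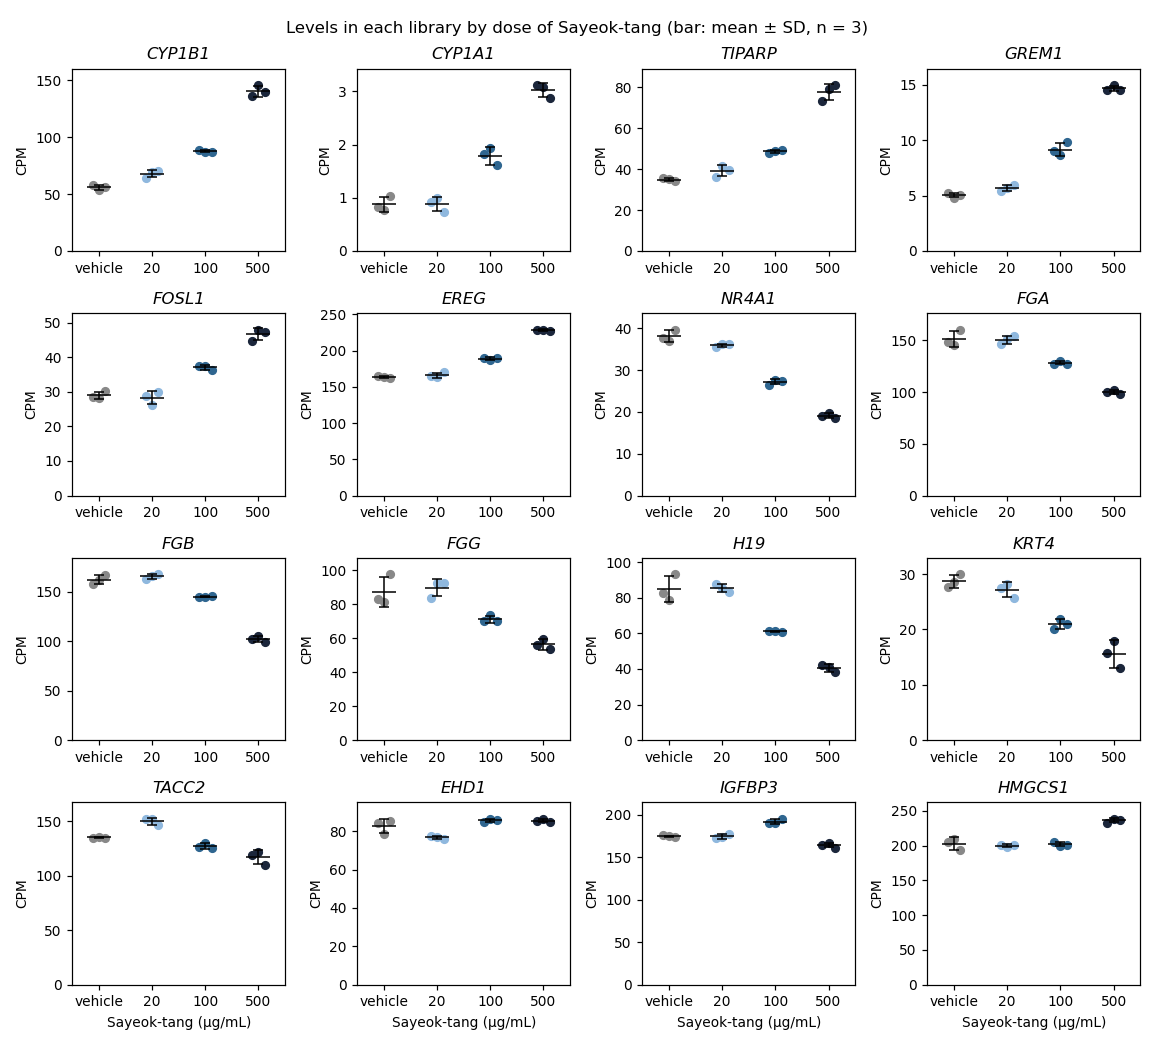
Levels in CPM of 16 genes in each library of vehicle and of Sayeok-tang at 20, 100 and 500 µg/mL, with mean ± SD (n = 3 per dose) in black and axes that start at 0. AhR targets, GREM1, FOSL1 and EREG climb between 20 and 100 µg/mL, NR4A1, H19, KRT4 and the fibrinogen genes drop, IGFBP3 peaks at 100 µg/mL, and HMGCS1 differs at 500 µg/mL.

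The fibrinogen genes were lower at 100 µg/mL. Of 18 genes on the fibrinogen and acute phase list 11 were tested, and FGA, FGB and FGG fell while none rose (list median log2 change -0.23). FGA had 128, 130 and 127 CPM at 100 µg/mL, against 146, 151 and 154 CPM at 20 µg/mL. Its log2 change was -0.23 ± 0.03 (edgeR adjusted p = 1.47e-04), with no overlap between the doses. FGB had 144, 145 and 145 CPM at 100 µg/mL, against 163, 166 and 167 CPM at 20 µg/mL. The libraries of each dose lay close together, and the log2 change was -0.19 ± 0.03 (edgeR adjusted p = 9.77e-04). FGG had 70.0, 73.6 and 69.9 CPM at 100 µg/mL, against 83.9, 92.8 and 92.4 CPM at 20 µg/mL. Its log2 change was -0.33 ± 0.06 (edgeR adjusted p = 0.0433), and it passed in only 1 of the 6 fits that left out a library, the one without low replicate 1.

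At 20 µg/mL the fibrinogen genes were near vehicle, with log2 differences of -0.01 ± 0.03 for FGA, 0.03 ± 0.03 for FGB and 0.04 ± 0.06 for FGG (edgeR adjusted p = 0.93, 0.613 and 0.765). At 100 µg/mL they were lower than vehicle by log2 changes of -0.24 ± 0.03, -0.16 ± 0.03 and -0.29 ± 0.06 in the same order (edgeR adjusted p = 1.05e-05, 7.71e-04 and 0.00744). From 100 to 500 µg/mL FGB changed by a further -0.50 ± 0.03, a larger step than the lower one (difference of the steps -0.31 ± 0.05, edgeR adjusted p = 0.00292). For FGA and FGG that difference was -0.13 ± 0.06 and 0.00 ± 0.11 and did not pass (edgeR adjusted p = 0.965 and 1). The other acute phase genes did not share a call. Of all 11 tested, fibrinogen genes included, 7 had an edgeR unadjusted p under 0.05 and 2 had a log2 difference above 0. CP, the copper carrier ceruloplasmin, had 5.35, 5.78 and 5.76 CPM at 100 µg/mL, against 7.19, 6.77 and 7.13 CPM at 20 µg/mL, a log2 difference of -0.32 ± 0.11 (edgeR adjusted p = 0.298), and complement C3 had 0.14 ± 0.05 (edgeR adjusted p = 0.429). Unlike the fibrinogen genes, CP at 20 µg/mL was above vehicle, by 0.40 ± 0.11 (edgeR adjusted p = 0.0139). At 100 µg/mL CP was 0.07 ± 0.11 from vehicle (edgeR adjusted p = 0.737). Further genes that fell were picked out after their values were seen. HNF4A, a nuclear receptor that maintains hepatocyte identity, changed by -0.17 ± 0.04, CPS1, the first enzyme of the urea cycle, by -0.22 ± 0.04, and EPHX1, microsomal epoxide hydrolase, by -0.21 ± 0.04 on the log2 scale (edgeR adjusted p = 0.0241, 0.00418 and 0.00505). VTN, which encodes the plasma adhesion protein vitronectin and was named by size, changed by -0.33 ± 0.07 (edgeR adjusted p = 0.0286). Its call was lost without medium replicate 2 or 3 and without low replicate 2 or 3.

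GREM1 had the largest rise among called genes of at least 5 CPM. It encodes gremlin, a secreted antagonist of bone morphogenetic proteins (BMPs), and lies at chr15:32717974-32745107 (plus strand). It had 8.99, 8.65 and 9.78 CPM at 100 µg/mL, against 5.42, 5.64 and 5.97 CPM at 20 µg/mL. The lowest library at 100 µg/mL was well above the highest at 20 µg/mL, a 1.61-fold difference and a log2 change of 0.69 ± 0.09 (edgeR adjusted p = 2.2e-05). At 20 µg/mL it differed from vehicle by 0.17 ± 0.10 (edgeR adjusted p = 0.306). The step from 100 to 500 µg/mL was again 0.68 ± 0.08. On the BMP list GREM1 was the only call among 18 genes tested (list median 0.01).

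Of the immediate early genes, NR4A1 fell and FOSL1 rose. NR4A1 (chr12:52022832-52059507, plus strand), an orphan nuclear receptor of the immediate early class, had 26.5, 27.6 and 27.4 CPM at 100 µg/mL, against 35.5, 36.1 and 36.2 CPM at 20 µg/mL. The groups did not come near each other, and the log2 change was -0.40 ± 0.05 (edgeR adjusted p = 1.35e-05). FOSL1, which encodes the AP-1 subunit FRA1, had 37.6, 37.5 and 36.3 CPM at 100 µg/mL, against 28.8, 26.1 and 30.0 CPM at 20 µg/mL. It rose by 0.39 ± 0.06 on the log2 scale (edgeR adjusted p = 1.47e-04). EREG, the epidermal growth factor receptor ligand epiregulin, had 190, 186 and 190 CPM at 100 µg/mL, against 165, 163 and 170 CPM at 20 µg/mL. It rose by 0.19 ± 0.03 (edgeR adjusted p = 5.29e-04). None of these 3 genes differed from vehicle at 20 µg/mL past the test, with log2 differences of -0.08 ± 0.05 for NR4A1, -0.03 ± 0.06 for FOSL1 and 0.02 ± 0.03 for EREG (edgeR adjusted p = 0.32, 0.827 and 0.759). NR4A1 and FOSL1 were the only calls among 23 immediate early genes tested, whose median log2 difference was -0.01. The related receptors NR4A2 (-0.37) and NR4A3 (-0.29) had lower log2 values that did not pass (edgeR adjusted p = 0.535 and 0.421), and FOS was at -0.35 (edgeR adjusted p = 0.628).

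RIN1, a RAS effector, and ALDH1A3, which makes retinoic acid, rose by 0.35 ± 0.08 and 0.26 ± 0.06 (edgeR adjusted p = 0.0433 for both), and TSPAN15, a tetraspanin partner of ADAM10, by 0.18 ± 0.04 (edgeR adjusted p = 0.0272). The call of RIN1 was lost without any 1 of the 6 libraries, that of ALDH1A3 without any but medium replicate 3 and that of TSPAN15 without any but low replicate 1.

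Of 20 keratin and junction genes tested, KRT4 and DSP fell, none rose and 18 did not pass (median -0.10), and 6 of the 20 had a log2 difference above 0. DESeq2 called 4 of the 20. At an edgeR unadjusted p under 0.05 there were 9 of the 20, against 1152 of all 16721 genes. KRT4, a keratin of stratified mucosa, had 20.1, 21.9 and 21.1 CPM at 100 µg/mL, against 27.6, 28.3 and 25.7 CPM at 20 µg/mL. It changed by -0.37 ± 0.07 (edgeR adjusted p = 0.00724), a call that was lost without replicate 1 of either dose, low replicate 2 or medium replicate 3. DSP, the desmosomal plaque protein desmoplakin, had 136, 133 and 130 CPM at 100 µg/mL, against 152, 154 and 150 CPM at 20 µg/mL, a change of -0.19 ± 0.04 (edgeR adjusted p = 0.0404) that was lost without any 1 library. DSP at 20 µg/mL was above vehicle by 0.19 ± 0.04 (edgeR adjusted p = 0.00311) and at 100 µg/mL was 0.00 ± 0.04 from it, and the libraries at 20 µg/mL enter both differences. The partner plakoglobin gene JUP had a log2 difference of -0.18 ± 0.04 that did not pass (edgeR adjusted p = 0.0784), and KRT18 one of -0.13 ± 0.03 (edgeR adjusted p = 0.087). The summed A549 and lung epithelial markers ran from 22112 to 22334 CPM at 100 µg/mL and from 22847 to 23540 CPM at 20 µg/mL. AKR1C1, an aldo-keto reductase on that list and on the NRF2 list, was the only edgeR call on each, at -0.15 ± 0.03 (edgeR adjusted p = 0.0278). Reads of this gene may be shared with near-identical AKR1C paralogs. DESeq2 called 2 members of each list. On the lung epithelial list 6 of 13 tested genes had an edgeR unadjusted p under 0.05 and 2 lay above 0. On the NRF2 list these counts were 6 and 6 of 21.

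H19, an imprinted long noncoding RNA, had 61.3, 61.3 and 60.9 CPM at 100 µg/mL, against 87.6, 85.5 and 83.0 CPM at 20 µg/mL. This was a 1.40-fold difference with no overlap, at a log2 change of -0.48 ± 0.07 (edgeR adjusted p = 0.0176). The call was lost without any 1 of the 6 libraries (adjusted p up to 0.119). SELENBP1, a selenium-binding protein, changed by -0.38 ± 0.09 with the same loss (edgeR adjusted p = 0.0433). Other genes that were lower included the type IV collagen gene COL4A4 at -0.30 ± 0.06, the ferritin receptor gene SCARA5 at -0.29 ± 0.06, the nuclear corepressor gene HR at -0.27 ± 0.05 and the noncoding RNA LINC02582 at -0.23 ± 0.05 (edgeR adjusted p = 0.0268, 0.0119, 0.00418 and 0.0286). HR lost its call only without low replicate 2. COL4A4 lost it without replicate 2 or 3 of either dose, SCARA5 without any library but low replicate 1, and LINC02582 likewise. The remaining calls were picked out after their values were seen. They comprise NTRK3, a neurotrophin receptor, CD24, a surface sialoglycoprotein, HEXIM1, an inhibitor of the elongation factor P-TEFb, CNTN1, a contactin, KLF5, a Krüppel-like factor, and GRAMD1B, a sterol carrier, all lower with log2 changes between -0.18 and -0.16. Against vehicle, COL4A4, SELENBP1 and KLF5 did not pass at 100 µg/mL. Their log2 differences there were -0.17 ± 0.06, -0.22 ± 0.08 and -0.06 ± 0.04 (edgeR adjusted p = 0.0746, 0.0899 and 0.323). At 20 µg/mL they were 0.13 ± 0.06, 0.16 ± 0.08 and 0.11 ± 0.04 from vehicle, also not past the test (edgeR adjusted p = 0.223, 0.271 and 0.0711). HIST2H2AA4, a histone gene with a near-identical copy, was under 5 CPM and is uncertain. It had 0.741, 1.78 and 0.889 CPM at 100 µg/mL, against 4.24, 2.98 and 3.61 CPM at 20 µg/mL, while the 500 µg/mL libraries had 2.97 to 4.04 CPM.

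For TACC2 and CAV1, as for DSP above, the differences of 20 µg/mL from vehicle and of 100 from 20 µg/mL passed with opposite signs. Both comparisons use the same 3 libraries at 20 µg/mL, so a deviation of those libraries alone would give such a pattern. TACC2, a centrosomal coiled-coil protein, had 126, 130 and 125 CPM at 100 µg/mL, against 152, 152 and 146 CPM at 20 µg/mL and 135, 136 and 135 CPM in vehicle. All libraries at 20 µg/mL were above all vehicle libraries (log2 0.15 ± 0.03, edgeR adjusted p = 0.00273). All at 100 µg/mL were below those at 20 µg/mL (log2 -0.24 ± 0.03, edgeR adjusted p = 9.06e-05). CAV1, the main protein of caveolae, was lower at 20 µg/mL than in vehicle by -0.10 ± 0.03 (edgeR adjusted p = 0.0403) and higher at 100 than at 20 µg/mL by 0.13 ± 0.03 (edgeR adjusted p = 0.0437), and it was picked out after its values were seen. EHD1, an endocytic recycling ATPase, had 84.8, 86.3 and 85.6 CPM at 100 µg/mL, against 77.4, 77.0 and 75.7 CPM at 20 µg/mL. It rose by 0.16 ± 0.04 (edgeR adjusted p = 0.0419), and its difference from vehicle at 20 µg/mL was -0.11 ± 0.04 (edgeR adjusted p = 0.0502). At 100 µg/mL TACC2, CAV1 and EHD1 did not pass against vehicle. Their log2 differences there were -0.09 ± 0.03, 0.04 ± 0.03 and 0.05 ± 0.03 (edgeR adjusted p = 0.0932, 0.52 and 0.408). IGFBP3, which binds insulin-like growth factors, had 191, 190 and 195 CPM at 100 µg/mL, against 173, 174 and 178 CPM at 20 µg/mL, and then 165, 167 and 162 CPM at 500 µg/mL. It was higher at 100 than at 20 µg/mL by 0.13 ± 0.03 and lower at 500 than at 100 µg/mL by -0.22 ± 0.03 (edgeR adjusted p = 0.0433 and 3.71e-06). The steps differed by -0.36 ± 0.05 (edgeR adjusted p = 1.86e-04), and both steps use the same 3 libraries at 100 µg/mL. The lower-step calls of EHD1 and IGFBP3 were lost without any 1 of the 6 libraries.

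Few inflammatory genes passed between the doses. Of 24 genes on the NF-kB and inflammation list 20 were tested, CXCL5 rose and PTGS2 fell, and the other 18 did not pass, although 19 of the 20 had a log2 difference above 0 (median 0.16). At an edgeR unadjusted p under 0.05 there were 10 of the 20, against 1152 of all 16721 genes. CXCL5, a neutrophil chemokine, had 103, 100 and 99.7 CPM at 100 µg/mL, against 88.3, 87.0 and 92.3 CPM at 20 µg/mL. Its rise of 0.18 ± 0.04 (edgeR adjusted p = 0.0119) was lost without replicate 1 of either dose, low replicate 2 or medium replicate 3. The upper step of CXCL5, 0.78 ± 0.03, was larger by 0.60 ± 0.06 (edgeR adjusted p = 1.42e-07). PTGS2, the inducible cyclooxygenase, had 19.5, 18.4 and 17.1 CPM at 100 µg/mL, against 22.5, 21.2 and 24.3 CPM at 20 µg/mL (log2 -0.30 ± 0.06, edgeR adjusted p = 0.0119), a call lost without medium replicate 2 or 3 or low replicate 3. CXCL1 had 2.29, 2.14 and 1.95 CPM at 100 µg/mL, against 1.29, 1.47 and 1.03 CPM at 20 µg/mL, and CXCL8 had 1.78, 2.02 and 1.65 CPM at 100 µg/mL, against 1.17, 0.995 and 1.42 CPM at 20 µg/mL. Neither chemokine overlapped between the doses, and the log2 differences of 0.76 ± 0.20 and 0.60 ± 0.20 did not pass (edgeR adjusted p = 0.106 and 0.328). CXCL1 passed with no filter and with only the 9 Sayeok-tang libraries (edgeR adjusted p = 0.0376 and 0.0294, up to 0.451 over the alternatives). IL32, a proinflammatory cytokine, likewise had 0.41 ± 0.11 (edgeR adjusted p = 0.131). Between 500 and 100 µg/mL, where 2.61% of all genes passed (1.48% higher, 1.12% lower), 13 of the 20 genes rose and none fell. Against vehicle, 9 of the 20 were higher and 0 lower at 100 µg/mL, and 1 and 0 at 20 µg/mL. Over all genes 4.78% and 3.58% were higher at these doses. At 100 µg/mL the log2 differences from vehicle of CXCL1, CXCL8 and CXCL5 were 1.16 ± 0.20, 0.78 ± 0.20 and 0.25 ± 0.04 (edgeR adjusted p = 2.05e-04, 0.00808 and 1.14e-05). IL32 at 0.16 ± 0.10 and PTGS2 at -0.16 ± 0.06 did not pass there (edgeR adjusted p = 0.354 and 0.0745).

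Cholesterol synthesis genes did not pass between 100 and 20 µg/mL and rose between 500 and 100 µg/mL. Of 25 genes tested, 0 passed at the lower step by edgeR or by DESeq2, 1 had an unadjusted p under 0.05, and the median log2 difference was -0.01. At the upper step 22 of the 25 rose (median 0.29). Against vehicle, 6 of the 25 were lower and 0 higher at 100 µg/mL (median -0.05). At 20 µg/mL 5 were lower and 1 higher than vehicle (median -0.03). Over all genes 6.00% were lower than vehicle at 100 µg/mL and 4.76% at 20 µg/mL. HMGCS1, which makes the mevalonate precursor, had 205, 200 and 202 CPM at 100 µg/mL, against 201, 197 and 201 CPM at 20 µg/mL, groups that overlapped (log2 0.02 ± 0.03, edgeR adjusted p = 0.978). SQLE, the squalene epoxidase, had 132, 131 and 132 CPM at 100 µg/mL, against 132, 133 and 132 CPM at 20 µg/mL, and 160, 162 and 155 CPM at 500 µg/mL. Its log2 difference of -0.01 ± 0.03 at the lower step and 0.27 ± 0.03 at the upper step differed by 0.28 ± 0.05 (edgeR adjusted p = 0.00598). The steps differed past the test in 8 of the 25 genes, all with the larger rise at the upper step. The largest such difference was that of lanosterol synthase, LSS, at 0.50 ± 0.08 (edgeR adjusted p = 4.83e-04), and the others included FDFT1, CYP51A1, FDPS, MSMO1 and DHCR7 beside SQLE. The desaturase genes SCD, FADS2 and FADS1 differed likewise, with lower steps of -0.05 ± 0.03, -0.06 ± 0.03 and 0.01 ± 0.03 and differences of 0.42 ± 0.06, 0.41 ± 0.05 and 0.30 ± 0.05 (edgeR adjusted p = 4.22e-05, 4.22e-05 and 0.00292).

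The amino acid response controlled by ATF4 lay between. Of 27 genes tested none passed at the lower step by edgeR, 10 had an unadjusted p under 0.05, DESeq2 called 1, and 21 had a log2 difference above 0 (median 0.06). At the upper step 11 rose. STC2, a secreted glycoprotein of stressed cells, had 31.6, 33.1 and 32.8 CPM at 100 µg/mL, against 27.8, 27.9 and 28.4 CPM at 20 µg/mL. Its libraries did not overlap, and the log2 difference of 0.21 ± 0.05 missed the threshold (edgeR adjusted p = 0.0547). STC2 passed in 4 alternatives, namely no filter, only the 6 libraries, only the 9 Sayeok-tang libraries, and the 6 libraries with a replicate block (edgeR adjusted p = 0.0206, 0.0257, 0.0266 and 0.0455), and its adjusted p was up to 0.264 in the others. The upper step of STC2 was 0.50 ± 0.05, and its difference from the lower step, 0.29 ± 0.08, did not pass (edgeR adjusted p = 0.33).

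**Figure D3:**
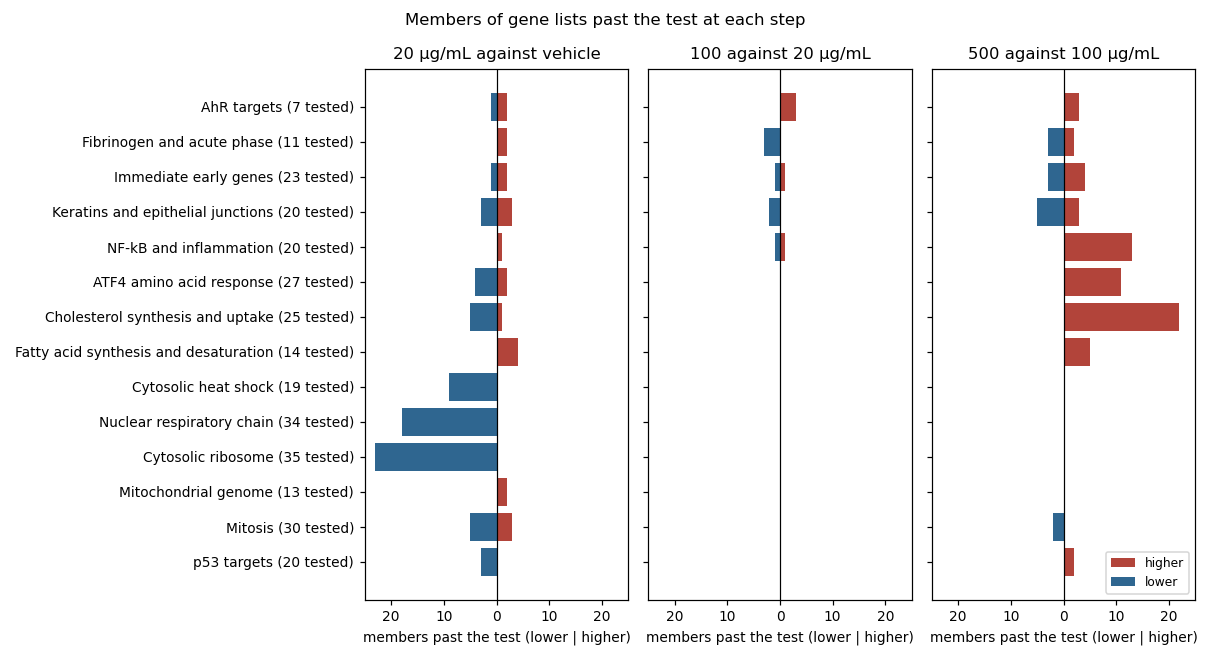
Number of members of 14 gene lists past the test (edgeR adjusted p under 0.05), higher to the right in red and lower to the left in blue, for 20 µg/mL against vehicle, 100 against 20 µg/mL and 500 against 100 µg/mL. At the middle step AhR targets have 3 members higher and fibrinogen genes 3 lower, and cholesterol genes have 0, against 22 higher at the upper step.

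Other groups differed from vehicle at both doses with medians that were close. Nuclear genes of the respiratory chain were lower than vehicle in 18 of 34 at 100 µg/mL and in 18 of 34 at 20 µg/mL (medians -0.15 and -0.15). Cytosolic ribosomal protein genes were lower in 20 of 35 at 100 µg/mL and in 23 of 35 at 20 µg/mL (medians -0.13 and -0.14). Heat shock genes were lower in 12 of 19 at 100 µg/mL and in 9 of 19 at 20 µg/mL (medians -0.10 and -0.10). Over all genes 10.8% passed against vehicle at 100 µg/mL (4.78% higher, 6.00% lower) and 8.34% at 20 µg/mL (3.58% higher, 4.76% lower), and both comparisons share the vehicle libraries. Between the doses none of these genes passed by edgeR or DESeq2, with 1 respiratory chain gene, 0 ribosomal genes and 2 heat shock genes at an unadjusted p under 0.05 and medians of 0.00, 0.01 and -0.01. The sample codes in the labels begin differently for vehicle and for Sayeok-tang libraries, and what that prefix means is not stated. A difference in handling, if there was one, and the treatment cannot be told apart in comparisons with vehicle. HSPA1A, the inducible heat shock protein gene with a near-identical copy, had 276, 254 and 249 CPM at 100 µg/mL, against 304, 278 and 269 CPM at 20 µg/mL, which overlap (log2 -0.13 ± 0.05, edgeR adjusted p = 0.654), and 330, 335 and 359 CPM in vehicle.

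Cell cycle genes did not separate the doses. None of 30 mitosis genes and none of 32 DNA replication genes passed by edgeR or DESeq2 between 100 and 20 µg/mL, with 1 and 2 genes at an unadjusted p under 0.05. CCNB1, the mitotic cyclin B1, had 211, 219 and 218 CPM at 100 µg/mL, against 223, 215 and 216 CPM at 20 µg/mL, a log2 difference of -0.02 ± 0.03 (edgeR adjusted p = 0.979). Its log2 differences from vehicle were -0.16 ± 0.03 at 100 and -0.14 ± 0.03 at 20 µg/mL (edgeR adjusted p = 9.17e-04 and 0.00313). Against vehicle, 7 of the 30 mitosis genes were lower and 2 higher at 100 µg/mL, and 5 lower and 3 higher at 20 µg/mL. Over all genes 6.00% and 4.76% were lower at these doses. In all, 10 of 35 gene lists had a member past the test between the doses, where 0.239% of all genes passed. The lists held 0 to 35 tested genes each and can share members, as with AKR1C1 on the NRF2 and A549 lists. The 25 lists without one by edgeR held 410 tested genes, DESeq2 called a member of 1 of them, and they included p53 targets, the unfolded protein response, hypoxia and glycolysis, interferon response and the mitochondrial genome.

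The 40 genes were also read at the same 2 doses of other extracts. The dried ginger libraries were not in the fit that called the genes. The Bojungikgi-tang libraries were in it, where they entered the filter and the estimate of the spread, but not the difference between the Sayeok-tang doses. For dried ginger, 38 of the 40 genes had the same sign between 100 and 20 µg/mL as for Sayeok-tang, against 57.6% of all genes. The sign was shared at an unadjusted p under 0.05 by 36 of them, against 6.68% of all genes. CYP1B1 differed between 100 and 20 µg/mL of dried ginger by 0.56 ± 0.04, GREM1 by 0.64 ± 0.08, NR4A1 by -0.65 ± 0.05, H19 by -0.62 ± 0.06 and FGB by -0.45 ± 0.04 on the log2 scale (edgeR adjusted p = 4.52e-15, 1.47e-07, 7.27e-14, 2.95e-10 and 2.63e-11). For Bojungikgi-tang, 35 of the 40 genes had the same sign, against 54.5% of all genes, and 18 had it at an unadjusted p under 0.05, against 3.21% of all genes. The median size of the log2 change over the 40 genes was 0.23 for Sayeok-tang, on whose values they were chosen, 0.25 for dried ginger and 0.11 for Bojungikgi-tang. CYP1B1 differed by 0.22 ± 0.05 and GREM1 by 0.16 ± 0.12 for Bojungikgi-tang, neither past the test (edgeR adjusted p = 0.643 and 0.988).

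The difference in the dose change between extracts was tested for each gene. No gene passed for Sayeok-tang against dried ginger or against Bojungikgi-tang by edgeR, with 643 and 653 genes at an unadjusted p under 0.05, and DESeq2 called 3 and 1. The precision was limited, with a median standard error of 0.08 in both tests. GREM1 differed by 0.04 ± 0.12 between Sayeok-tang and dried ginger and by 0.52 ± 0.15 between Sayeok-tang and Bojungikgi-tang (edgeR adjusted p = 1 and 0.999). FGB and IGFBP3 had the lowest adjusted p against dried ginger among the named genes, at log2 differences of 0.26 ± 0.06 and 0.20 ± 0.05 (edgeR adjusted p = 0.259 for both). IGFBP3 had a change of 0.13 ± 0.03 for Sayeok-tang and a log2 difference of -0.07 ± 0.03 for dried ginger that did not pass (edgeR adjusted p = 0.594). A miss of the threshold does not show that the extracts act alike.

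**Figure D4:**
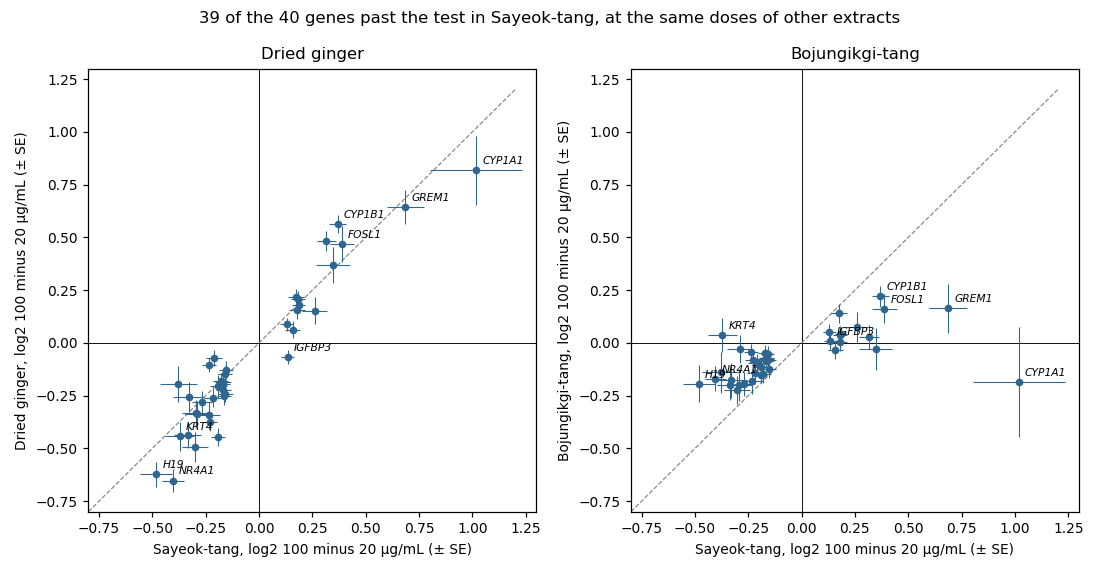
Log2 difference between 100 and 20 µg/mL with standard errors for 39 of the 40 genes called for Sayeok-tang (x axis), against dried ginger (left panel) and Bojungikgi-tang (right panel) on the y axis, with equal change on the dashed line. HIST2H2AA4 lies outside the axes. Most genes sit near the dashed line for dried ginger, and nearer to 0 for Bojungikgi-tang, where CYP1A1 is at -0.18 ± 0.26.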

How the data were processed

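Messenger RNA libraries of A549 cells were read as 100 bp pairs with a directional kit, per the labels' protocols. Per the submitters' processing notes, the tools included FastQC 0.11.9, Trim Galore 0.6.5, STAR 2.7.3a and RSEM 1.3.3, with hg38 as build. The authors deposited RSEM expected counts per gene, not normalised, of which 24.4% of non-zero values were not whole. The annotation release and RSEM strand setting are not given in the sources used here. In all, the table has 60675 gene IDs and 269 value columns, of which 60 belong to the series and 209 were not used. Symbols and positions came from GENCODE 29 (57055 IDs), and sequences from RefSeq (GRCh38.p14).

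Expected counts were rounded to whole numbers. Low genes were removed by filterByExpr (edgeR 4.0.16, minimum count 10), libraries scaled by TMM, and genes tested by robust quasi-likelihood F-tests in R 4.3.3. The fit held 18 libraries, 9 of Sayeok-tang, 6 of Bojungikgi-tang and 3 of vehicle. Dried ginger values came from a fit of all 60 libraries (17870 genes tested). P-values were adjusted by Benjamini-Hochberg over all genes of a comparison and called under 0.05. Standard errors are the log2 change over the square root of F. CPM values use the TMM-adjusted library total, except those of the marker check. Totals ran from 20.9 to 29.6 M (mega) counts in the 6 libraries, so 1 CPM stands for about 20.9 to 29.6 counts. The script was tested on simulated data.

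Named genes were the 12 largest rises and 12 largest falls among called genes of at least 5 CPM without overlap, up to 3 called members of each list with at least 2 calls, and 17 genes followed throughout. Members, lists and comparisons were chosen with earlier results of these data known. Alternatives were no filter, DESeq2 1.42.0, size factors by relative log expression, other sets of libraries, the replicate number as a block, and leaving out each library. The test of the upper against the lower dose step was added after seeing the data. Some genes are not reported here.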

Additional observations from a re-analysis of the deposited data

How the results depend on the processing

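The count of 40 genes between 100 and 20 µg/mL (14 higher, 26 lower) was 41 by DESeq2, 40 with relative log expression factors and 34 in a fit of all 60 libraries. It was 98 (39 higher, 59 lower) with no filter, 105 (35 and 70) with only the 6 libraries, 114 (41 and 73) with only the 9 Sayeok-tang libraries, and 94 (34 and 60) with the 6 libraries and a replicate block. The fits of only 6 or 9 libraries estimate the spread from fewer groups. Of the 40 genes, 31 were also called by DESeq2, 29 in the fit of all libraries, 38 in the 6 libraries with the block, and all 40 in the other alternatives that kept every library. Leaving out a library gave 14 to 30 genes (6 to 9 higher, 7 to 21 lower), with 20 without medium replicate 2, 14 without medium replicate 3, 14 without low replicate 2 and 21 without low replicate 3. CYP1B1, EREG, FGA, FGB, FOSL1, GREM1, NR4A1, TACC2 and TIPARP were called in every alternative that gave them an adjusted p; DESeq2 gave none to GREM1, CYP1A1, RIN1 and SELENBP1. Among the other called genes followed, DESeq2 did not call ALDH1A3, COL4A4, LINC02582 and VTN, and the fit of all libraries did not call ALDH1A3, DSP, EHD1, IGFBP3, LINC02582, PTGS2 and RIN1. VTN was also lost in the 6 libraries with the block. HSPA1A passed there (adjusted p = 0.0305). CCNB1, which did not pass, ran from -0.0251 to 0.00438 over the fits without a library, with a change of sign to 0.00438 without medium replicate 1 and 0.00277 without low replicate 1.

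Other counts moved with the library left out. The 436 genes between 500 and 100 µg/mL became 275 to 316 (286 without medium replicate 1, 283 without medium replicate 3, 284 without high replicate 1, 275 without high replicate 2). The 1802 genes between 100 µg/mL and vehicle became 836 to 2066 (836 without medium replicate 1, 1055 without medium replicate 3, 1090 without vehicle replicate 3). The 1394 between 20 µg/mL and vehicle became 766 to 1742 (797 without low replicate 3, 766 without vehicle replicate 3). The 23 genes whose dose steps differed became 41 with no filter and 12 to 23 without a library (12 without any medium replicate). The difference between Sayeok-tang and Bojungikgi-tang gave 1 gene by DESeq2, 11 with no filter and 0 to 1 without a library (1 without medium replicate 2), and that between Sayeok-tang and dried ginger gave 3 by DESeq2. The cause of these moves was not tested.

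Same-numbered libraries at 100 and 20 µg/mL had deviations correlated at -0.112, -0.204 and -0.01. Between the high and low doses these correlations were 0.151, 0.0717 and 0.0141, and between high and medium -0.12, 0.00161 and -0.0265. Whether same-numbered libraries were handled together cannot be read from these values and was not tested. HSPA1A fell with the replicate number at 100 µg/mL (276, 254 and 249 CPM) and at 20 µg/mL (304, 278 and 269 CPM). In vehicle it did not (330, 335 and 359 CPM). With the replicate number as a block 49 genes passed (16 higher, 33 lower), among them all 40. The block moved the edgeR adjusted p of DSP from 0.0404 to 0.00382 and that of H19 from 0.0176 to 0.0476. Genes near 1 CPM were measured less precisely, with a standard error of 0.21 for CYP1A1, against a median of 0.05 for genes of at least 5 CPM.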
